A study of Mus musculus with 5 samples.

Results

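Genes of the Ppp protein phosphatase families were examined for binding of the germ-cell zinc finger protein ZFP541 in pachytene and diplotene spermatocytes. All protein-coding genes of the RefSeq annotation of mm10 whose symbol begins with Ppp and a digit from 1 to 6 were taken, which gave 77 of 21779 protein-coding genes. The symbol alone set the members, but the family was selected on the peaks of these ChIP libraries (which genes carry a WT ZFP541 peak), so the counts below are descriptions and carry no test. By symbol, 11 genes encode catalytic subunits and 65 regulatory subunits. Ppp1ccb, which is named after the PP1 catalytic gene Ppp1cc but has a longer symbol, was in neither class.

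The libraries were made from adult C57BL/6 testis: 1 ChIP library with an antibody against ZFP541 from Zfp541-/- cells (KO), 2 with the same antibody from WT cells, and 2 input libraries without antibody from WT cells. ChIP-seq sequences the DNA that an antibody enriches from cross-linked chromatin, and the antibody was raised against amino acids 1 to 300 of ZFP541. The cells were enriched by STA-PUT sedimentation, and peak lists carry no expression, so their identity could not be checked against marker genes. The KO list held 256 peaks and the WT lists 8236 and 10371. Read depth is unknown, a missing peak does not show that a site was unbound, and the labels do not say whether the WT replicates came from separate animals. A ZFP541 region is a stretch of overlapping peaks from both WT replicates without a KO peak, and there were 5325 of them. Fold enrichment, the ratio of ChIP signal to the background used by the peak caller, and −log10 q are the authors' own values and describe peaks within a list.

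Protein phosphatases of the PPP type remove phosphate from serine and threonine. A few catalytic subunits, of PP1, PP2A, PP2B (calcineurin), PP4, PP5 and PP6, gain their substrates through many regulatory subunits that place, activate or inhibit them. In meiotic cells PP2A with a B56 subunit is known to protect centromeric cohesion, PP4 is known to act on the phosphorylated histone of DNA breaks, and in mice a splice form of Ppp1cc is needed to make sperm.

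Start windows, 300 bases from 250 before to 50 after an annotated start, are shown for 5 genes so that sequence around starts can be read. The first 3 belong to the strongest genes with a region covering the whole window, the fourth to the strongest catalytic gene with a region over its window, and the last to a catalytic gene without any peak, chosen after its values were seen. They are from RefSeq (mm10), 5′ to 3′ on the strand of the gene. Capitals mark a GC box (GGGCGG), the letters of a CCAAT box, a TATA box (TATAAA), an E-box (CACGTG), a CRE (TGACGTCA) or an ETS site (CCGGAAG) on either strand.
Ppp2r5a, chr1:191396992-191397291, minus strand: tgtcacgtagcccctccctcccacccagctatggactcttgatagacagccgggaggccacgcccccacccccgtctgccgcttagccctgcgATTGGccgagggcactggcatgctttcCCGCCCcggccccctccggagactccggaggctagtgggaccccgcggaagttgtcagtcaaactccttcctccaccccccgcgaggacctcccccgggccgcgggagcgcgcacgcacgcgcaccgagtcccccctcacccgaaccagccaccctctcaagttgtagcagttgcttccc
Ppp1r26, chr2:28446820-28447119, plus strand: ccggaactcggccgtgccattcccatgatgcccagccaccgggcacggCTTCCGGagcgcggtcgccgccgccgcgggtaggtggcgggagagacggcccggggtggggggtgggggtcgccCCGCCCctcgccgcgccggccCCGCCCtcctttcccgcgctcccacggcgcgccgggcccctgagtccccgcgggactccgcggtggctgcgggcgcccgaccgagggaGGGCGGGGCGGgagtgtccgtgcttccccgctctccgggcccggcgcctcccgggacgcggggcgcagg
Ppp2r1a, chr17:20945204-20945503, plus strand: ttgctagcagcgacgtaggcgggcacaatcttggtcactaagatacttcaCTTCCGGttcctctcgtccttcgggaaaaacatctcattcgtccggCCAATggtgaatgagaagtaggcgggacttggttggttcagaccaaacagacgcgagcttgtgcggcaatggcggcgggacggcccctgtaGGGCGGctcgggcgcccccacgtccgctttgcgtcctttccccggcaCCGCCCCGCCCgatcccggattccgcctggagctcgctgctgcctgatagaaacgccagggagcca
Ppp2ca, chr11:52098574-52098873, plus strand: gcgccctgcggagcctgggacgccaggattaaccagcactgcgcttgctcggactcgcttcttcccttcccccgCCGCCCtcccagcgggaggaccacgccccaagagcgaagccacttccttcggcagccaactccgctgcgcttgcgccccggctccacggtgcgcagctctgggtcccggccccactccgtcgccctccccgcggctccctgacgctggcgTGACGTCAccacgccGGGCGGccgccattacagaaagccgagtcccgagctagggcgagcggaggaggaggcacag
Ppp1cc, chr5:122158025-122158324, plus strand: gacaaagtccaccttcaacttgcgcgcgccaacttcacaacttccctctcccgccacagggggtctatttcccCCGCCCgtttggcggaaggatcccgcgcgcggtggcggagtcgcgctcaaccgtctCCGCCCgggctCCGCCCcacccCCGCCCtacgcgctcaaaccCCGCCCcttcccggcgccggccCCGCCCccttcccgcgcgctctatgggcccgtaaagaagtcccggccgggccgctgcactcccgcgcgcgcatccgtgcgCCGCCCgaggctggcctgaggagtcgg
The windows hold 25, 48, 29, 34 and 42 CpG in that order. GC boxes were found 1, 4, 3, 2 and 7 times, so the window of Ppp1cc, which had no peak in any library, holds the most GC boxes of the 5. The region of Ppp2ca began inside its window, after the first GC box marked there.

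ZFP541 regions lay in the body or within 1 kb of an end of 31 of the 77 Ppp genes (40.3%, 95% exact binomial interval 29.2 to 52.1, counting error only). The share of all protein-coding genes with such a region was 23.9%. Counting only regions within 1 kb of a gene end, 29 Ppp genes (37.7%, 26.9 to 49.4) had a region, against 21% of all protein-coding genes. Taken one library at a time, KO peaks were found at 2 Ppp genes, WT replicate 1 peaks at 37 and WT replicate 2 peaks at 41, where the shares of all protein-coding genes with a peak were 0.22%, 27.8% and 32.6%. The number depended on the peak threshold: requiring a −log10 q of 5 or more left 18 Ppp genes with a region (23.4%), against 13.7% of all protein-coding genes. Requiring 10 or more left 10 Ppp genes (13.0%), against 7.88%.

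Neither KO peak at a Ppp gene lay in a WT region. The peak in Ppp2r2b, which encodes a B55 subunit of PP2A, had a fold of 6.47 and a −log10 q of 32.1 in the KO library (chromosome 18, 42975835 to 42976091), and neither WT replicate had a peak anywhere at this gene. The other was in the body of Ppp1r9a, 21131 bp from its nearer end, with a fold of 2.78 in the KO library (chromosome 6, 4923928 to 4924187). The WT region of Ppp1r9a lay elsewhere, at the lower-coordinate end. Keeping regions that overlap a KO peak left the number of Ppp genes with a region at 31. With 1 KO library, no test between genotypes was possible.

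**Figure D1:**
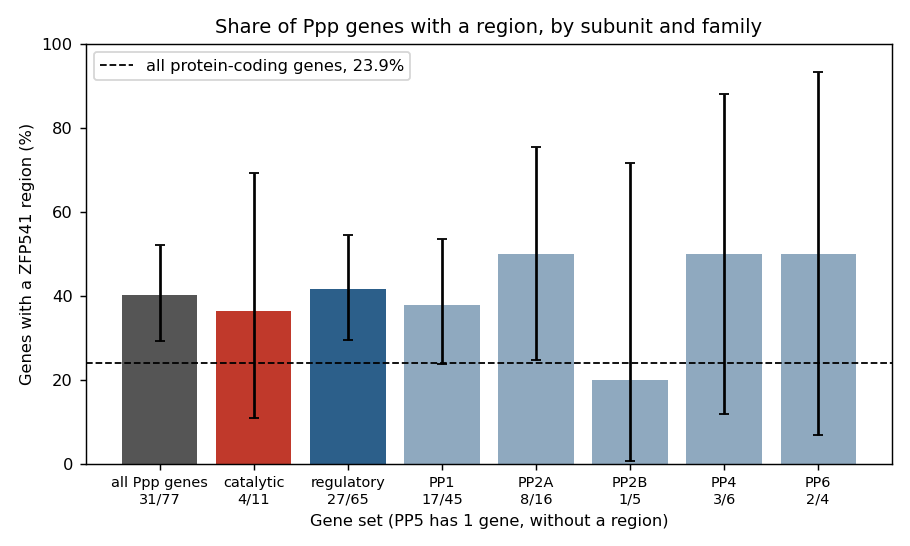
Percentage of genes with a ZFP541 region in the gene body or within 1 kb of an end, for all Ppp genes, by subunit class and by family (counts under each bar). Error bars are 95% exact binomial intervals, and the dashed line at 23.9% is the share of all protein-coding genes. The bars of catalytic and regulatory genes stand at 36.4% and 41.5%. The intervals give counting error only and are no test, because the family was selected on these peaks.

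The strongest regions were at regulatory genes. The shares of catalytic and regulatory genes with a region were not tested against each other. With 11 catalytic genes they cannot be shown to be alike, and the intervals are counting error only. Of the 11 catalytic genes, 4 (36.4%, 10.9 to 69.2) had a region, and of the 65 regulatory genes, 27 (41.5%, 29.4 to 54.4). With Ppp1ccb, which had no peak, added to the catalytic genes, their number with a region is still 4. Median folds of the genes with a region were 5.16 and 5.45 (WT replicates 1 and 2) for catalytic genes and 6.17 and 6.71 for regulatory genes. The highest fold at a catalytic gene was 5.36 in replicate 1 and 6.04 in replicate 2, whereas regulatory genes reached 18.2 and 18.1. Of the genes with a region, 0 of 4 catalytic and 13 of 27 regulatory genes had a mean percentile rank of fold of at least 75. Ranks were taken within the 2 WT lists. The share of all regions at such a rank was not determined, so these counts do not set regulatory genes apart from other genes. With peaks limited to a −log10 q of 10 or more, 0 of 11 catalytic and 10 of 65 regulatory genes (15.4%) had a region, against 7.88% of all protein-coding genes. At that share, 11 genes are too few to read anything from a count of 0. Since only 4 catalytic genes had one, the difference in strength rests on few genes and was not tested.

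The 4 catalytic genes with a region encode PP1 and PP2A. Their regions have no KO peak by definition, and KO peaks lay at only 0.22% of all protein-coding genes. Ppp2cb, a PP2A catalytic gene, had no peak in the KO library, against folds of 5.01 and 6.04 in the WT replicates (chromosome 8, 33599164 to 33601218). Ppp2ca, which encodes the other PP2A catalytic subunit, had no KO peak, against 5.36 and 5.53 in WT (chromosome 11, 52098675 to 52099595). These regions overlapped the lower-coordinate ends of both PP2A catalytic genes. Ppp1ca, for the alpha form of PP1, had no KO peak, against 5.31 and 5.37 in WT (chromosome 19, 4191875 to 4192705), and this region also lay in an end window of Tbc1d10c. Ppp1cb, for the beta form, had no KO peak, against 2.71 and 4.03 in WT (chromosome 5, 32458861 to 32459731). It was the weakest of all 31, with a −log10 q of only 0.480 in replicate 1, so it was lost at a q-value of 0.05.

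The other 7 catalytic genes had no region. Ppp1cc, Ppp3cb (calcineurin), Ppp5c and Ppp6c had no peak in any library. Ppp3ca and Ppp3cc, also calcineurin genes, and Ppp4c had no peak in the KO library or WT replicate 1. They had weak peaks in WT replicate 2, with folds of 2.72, 3.02 and 3.02 and −log10 q of 0.487, 2.15 and 1.01. The peaks of Ppp3ca and Ppp4c thus had a q-value above 0.05. Ppp3cc is the calcineurin catalytic gene known for its expression in testis. With WT replicate 2 alone the number of catalytic genes with a peak was therefore 7, and with replicate 1 alone it was 4. The shares of all protein-coding genes with a peak were 32.6% and 27.8%.

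**Figure D2:**
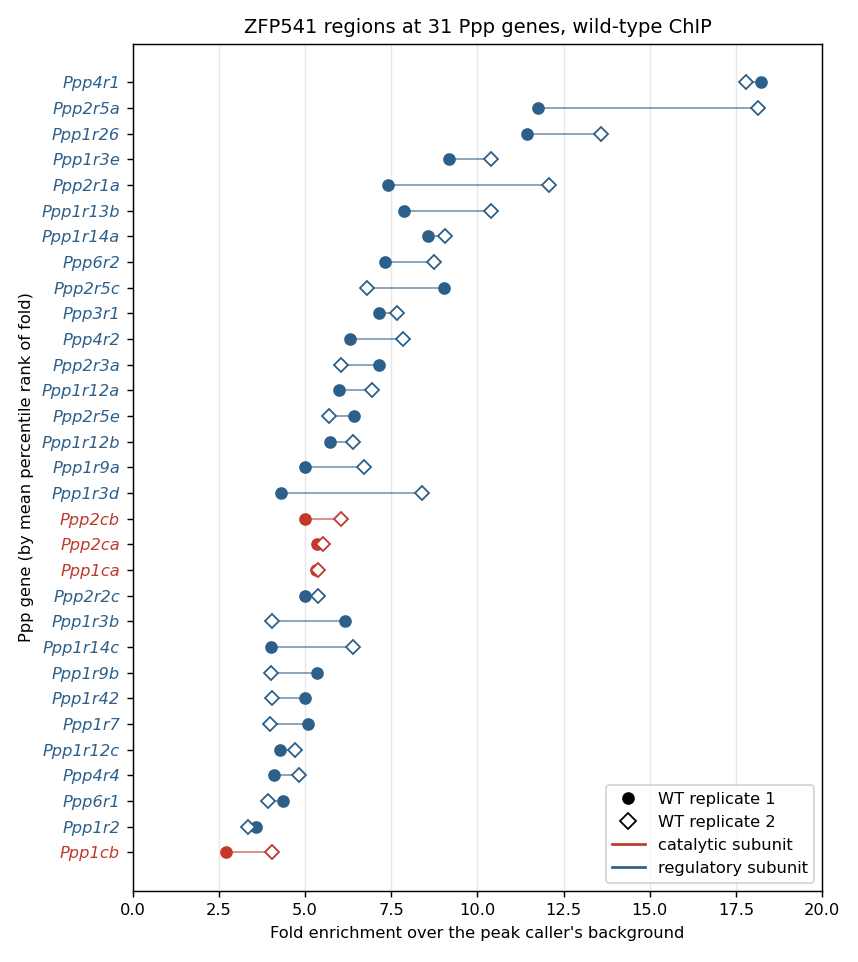
Fold enrichment (x axis) of the strongest ZFP541 region of each of the 31 Ppp genes with one, ordered by mean percentile rank. Filled circles are WT replicate 1 and open diamonds WT replicate 2. By definition, regions have no KO peak. Catalytic genes (red) lie between 2.71 and 6.04, and regulatory genes (blue) reach 18.2.

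The 10 Ppp genes that ranked highest by fold (mean percentile over the WT lists) were all regulatory. They had no KO peak, which within their regions follows from the definition. The first was Ppp4r1, which encodes a scaffold-like regulatory subunit of PP4, with folds of 18.2 and 17.8 in the WT replicates and −log10 q of 49.0 and 49.9 (chromosome 17, 65781790 to 65784243). Next came Ppp2r5a, a B56 subunit gene of PP2A, with folds of 11.8 and 18.1 and −log10 q of 38.1 and 51.3 (chromosome 1, 191394790 to 191398155). Its region was 3366 bp wide, the widest at a Ppp gene. Ppp1r26, a PP1 regulatory subunit gene, had folds of 11.4 and 13.6 and −log10 q of 23.7 and 34.8 (chromosome 2, 28445926 to 28447627). Ppp1r3e, a glycogen-targeting subunit gene of PP1, had 9.18 and 10.4 with −log10 q of 22.9 and 29.0 (chromosome 14, 54875760 to 54877921). In this gene of 1942 bp the region covered most of the body, so its ends cannot be separated.

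Further down the 10, Ppp2r1a, which encodes the scaffold subunit that joins the other PP2A subunits, had folds of 7.41 and 12.1 and −log10 q of 17.1 and 30.0 (chromosome 17, 20945150 to 20946541). Ppp1r13b, the gene of the p53-binding protein ASPP1, had 7.86 and 10.4 with −log10 q of 12.4 and 21.5 (chromosome 12, 111907182 to 111908455). The inhibitor gene Ppp1r14a (CPI-17) had 8.57 and 9.06 with −log10 q of 14.5 and 17.0 (chromosome 7, 29288585 to 29290959). All of these 3 genes had a higher fold in replicate 2 than in replicate 1. Ppp6r2, a PP6 regulatory gene, had 7.32 and 8.73 with −log10 q of 13.7 and 15.9 (chromosome 15, 89210889 to 89212198). Ppp2r5c, another B56 gene, had 9.04 and 6.81 with −log10 q of 17.3 and 11.6 (chromosome 12, 110446293 to 110447496). Ppp3r1, which encodes the calcium-binding calcineurin B subunit, had 7.14 and 7.68 with −log10 q of 10.3 and 13.6 (chromosome 11, 17158987 to 17160261). These 10 genes had a region in the body or within the end windows under every alternative threshold, overlap, replicate and window tried. Of them, Ppp2r5a, Ppp1r13b and Ppp6r2 are left out when genes sharing an end window with another gene are dropped.

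By family, regions were found at 17 of 45 PP1 genes (37.8%) and 8 of 16 PP2A genes (50%). They were also found at 1 of 5 calcineurin genes, 3 of 6 PP4 genes and 2 of 4 PP6 genes, and not at Ppp5c. The share of all protein-coding genes with a region was 23.9%. With so few genes in most families and groups, none can be set apart by its count. Of the 5 B56 genes of PP2A, Ppp2r5a, Ppp2r5c and Ppp2r5e (6.43 and 5.71) had a region. Of the 4 B55 genes only Ppp2r2c did, of the 3 genes Ppp2r3a, Ppp2r3c and Ppp2r3d only Ppp2r3a (7.14 and 6.04), and of the 2 scaffold genes Ppp2r1a. Ppp2r2c had 2 regions, one with folds of 5.0 and 5.37 (chromosome 5, 36868035 to 36869338) and the next with 3.57 and 7.05 (36869534 to 36870450). In PP4, Ppp4r2, which is known in the complex that acts at DNA breaks, had 6.30 and 7.85, and Ppp4r4 had 4.11 and 4.83. Ppp6r1 had 4.35 and 3.93.

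Among PP1 regulators, all 3 genes with a Ppp1r12 symbol, which encode myosin phosphatase targeting subunits, had a region: Ppp1r12a with 6.00 and 6.94, Ppp1r12b with 5.71 and 6.38, and Ppp1r12c with 4.29 and 4.70. The related genes Ppp1r16a and Ppp1r16b had a peak in WT replicate 1 only and no region. Both neurabin genes had a region. Ppp1r9a (neurabin) had 5.0 and 6.71 and Ppp1r9b (spinophilin) 5.36 and 4.02. Of 7 glycogen-targeting genes 3 had a region, Ppp1r3e, Ppp1r3d with 4.29 and 8.39, and Ppp1r3b with 6.17 and 4.04. Of the 5 genes with a Ppp1r14 symbol, Ppp1r14a and Ppp1r14c (4.01 and 6.38) had one. The share of all protein-coding genes with a region was 23.9%, and groups of so few genes allow no reading by group. Ppp1r42, a leucine-rich repeat gene known from testis, had 5.0 and 4.03, the nuclear PP1 regulator gene Ppp1r7 5.07 and 3.97, and the inhibitor gene Ppp1r2 3.57 and 3.36.

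The other 46 Ppp genes had no region. Of these, 32 had no WT peak. Besides the 4 catalytic genes above, Ppp1ccb and Ppp2r2b, they were Ppp1r1a, Ppp1r1b (DARPP-32, an inhibitor of PP1), Ppp1r1c, Ppp1r3a, Ppp1r3f, Ppp1r3g, Ppp1r10 (PNUTS, a nuclear subunit), Ppp1r11, Ppp1r14d, Ppp1r15b, Ppp1r17, Ppp1r18, Ppp1r21, Ppp1r27, Ppp1r32, Ppp1r36, Ppp1r37, Ppp2r1b, Ppp2r2a, Ppp2r2d, Ppp2r3c, Ppp2r3d, Ppp2r5d, Ppp3r2, Ppp4r3a and Ppp4r3b. Ppp3r2 is the calcineurin B gene known for its expression in testis. A peak in WT replicate 1 only was found at 4 genes, Ppp1r15a, Ppp1r16a and Ppp1r16b with a fold of 3.21 each and Ppp1r35 with 3.39. A peak in WT replicate 2 only was found at 8, the 3 catalytic genes above and Ppp1r13l (2.72), Ppp1r14b (5.37), Ppp1r14bl (2.69), Ppp2r5b (3.36) and Ppp6r3 (3.02). All of these but Ppp1r14b had a fold between 2.69 and 3.39. At Ppp1r8 (3.21 and 3.69) and Ppp1r3c (3.14 and 3.35) both WT replicates had a peak, and the peaks did not overlap. Shares of all protein-coding genes without a WT peak, or with peaks in these patterns, were not determined. These counts therefore cannot be read as particular to Ppp genes.

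The window of 1 kb decided few of these calls. The region counted at Ppp1r42 lay 295 bp outside the gene and also in an end window of Tcf24; it was the only one of the 31 that did not overlap the body of its gene. The nearest region that was not counted lay 1867 bp from Ppp2r5d and the next 2671 bp from Ppp1r14b. Regions of 5 Ppp genes also lay in an end window of another protein-coding gene: Ppp1ca with Tbc1d10c, Ppp1r42 with Tcf24, Ppp1r3d with Fam217b, Ppp1r7 with Pask and Ppp1r9a with Gmfg-ps. To which gene of such a pair the binding belongs cannot be told apart.

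**Figure D3:**
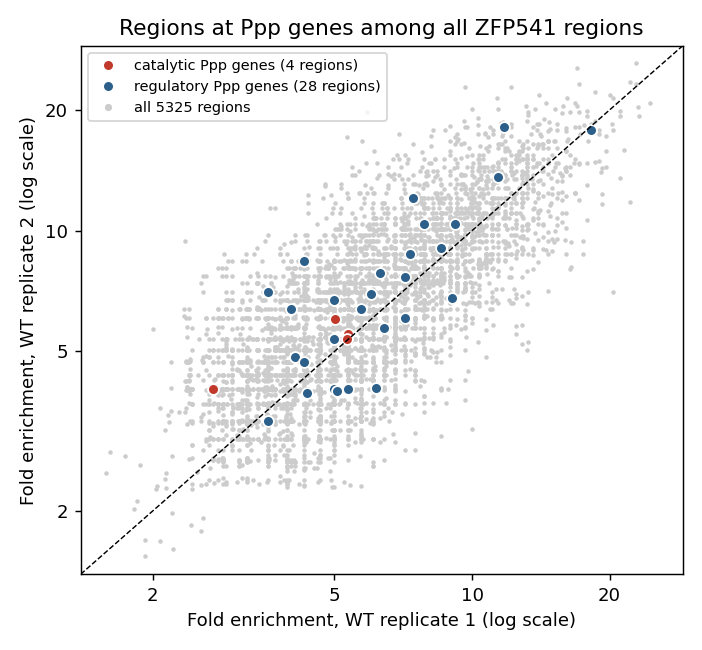
Fold enrichment of all 5325 ZFP541 regions (grey) in WT replicate 1 (x axis) and WT replicate 2 (y axis), both on log scales, with regions at catalytic (red, 4) and regulatory (blue, 28) Ppp genes; the dashed line marks equal folds. The Ppp regions spread through the cloud of all regions, with replicate 2 higher at 22 of 32, against 3145 of all 5325.

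The 32 regions at Ppp genes had median folds close to those of all ZFP541 regions. Their median folds were 5.54 and 6.38 in WT replicates 1 and 2, against 5.36 and 6.04 for all regions, and their median width was 1289.5 bp, against 1061 bp. The fold in replicate 2 was a median of 1.11 times that in replicate 1, with a range of 0.655 to 1.97, and 22 of 32 were higher in replicate 2. Over all regions this ratio had a median of 1.07, and 3145 of 5325 were higher in replicate 2. Across the 32 regions, which share both libraries, the replicates' folds had a Spearman correlation of 0.710 and a Pearson correlation of 0.858, against 0.735 and 0.770 across all 5325. Summits of the replicates lay a median of 81 bp apart at the 31 genes, and at 24 of them within 300 bp.

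**Figure D4:**
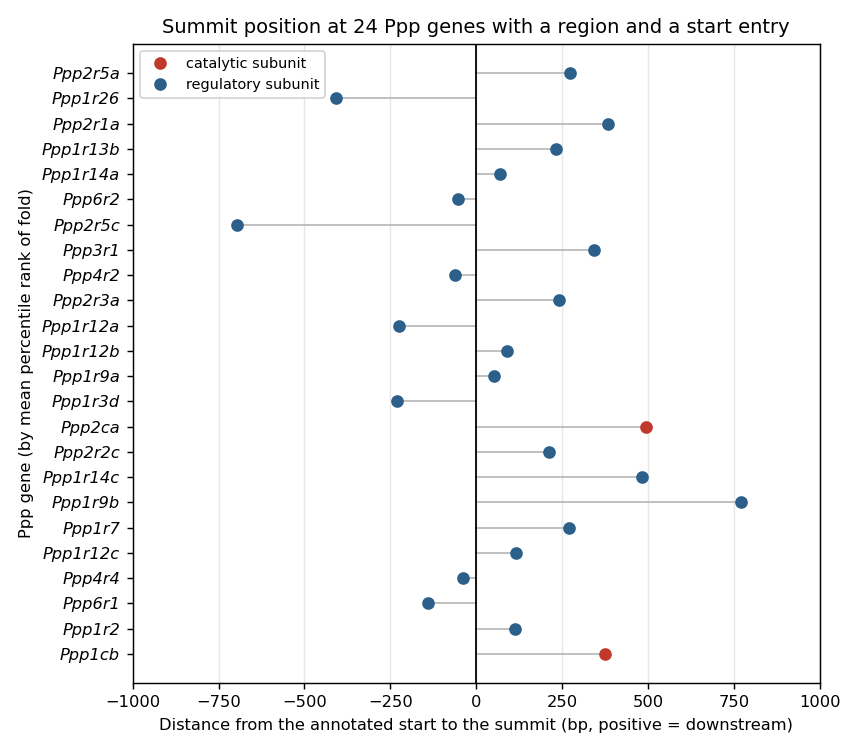
Distance in bp from the nearest annotated start of the gene (vertical line at 0) to the replicate 1 summit, positive downstream, for the 24 Ppp genes that have a region and a start window. All 24 summits lie between −696 and 771 bp, and 16 are downstream.

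Regions at Ppp genes lay near annotated starts of transcription where these were given. Start windows were given for 61 of the 77 genes. For the 24 of these with a region, the replicate 1 summit was a median of 231.5 bp from the nearest annotated start. It was within 500 bp at 22 and within 1000 bp at all 24. Distances were not taken for all protein-coding genes, so nearness cannot be read as particular to Ppp genes. The replicate 1 summit was downstream of the start at 16 and upstream at 8. Ppp1r9b lay 771 bp downstream and Ppp2r5c farthest upstream (signed distance −696 bp). The side can differ in replicate 2: at Ppp1r12a its summit lay 938 bp from that of replicate 1 and downstream of the start. At Ppp2r2c and Ppp1r12c, the only genes whose regions were not within 1 kb of an end of the gene, the summits lay 211 bp and 117 bp downstream of annotated starts inside the gene. The region of Ppp2r2c also held an annotated start of Gm52812. Of the 61 genes, 23 (37.7%) had a region over a start window, against 20.4% of all protein-coding genes with such a window. The exception among the 24 was Ppp1r14c, whose region began downstream of its window.

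**Figure D5:**
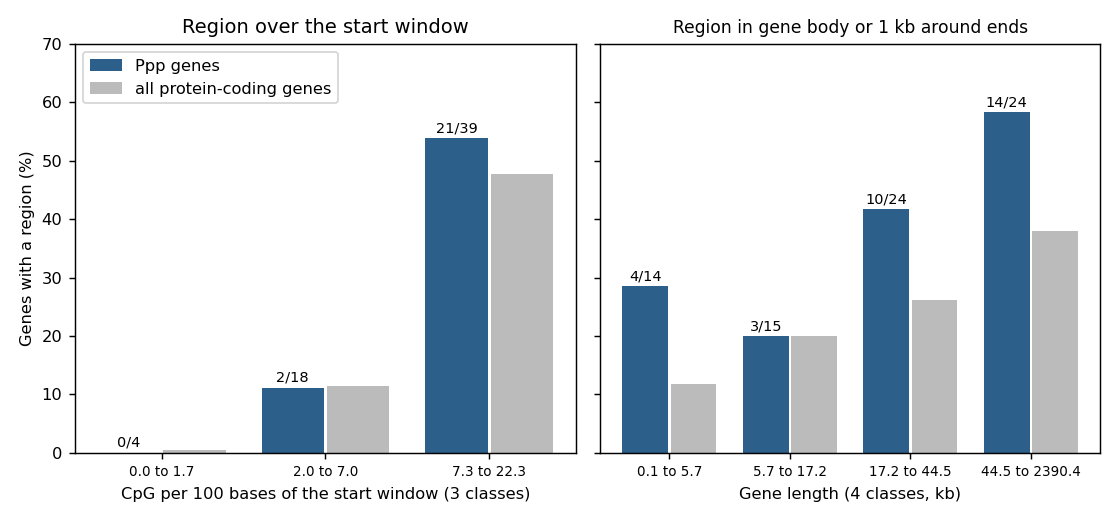
Percentage of Ppp genes (blue, counts above bars) and of all protein-coding genes (grey) with a region over a start window, by 3 classes of CpG per 100 bases with about equal numbers of genes (left), and with a region in the gene body or within 1 kb of an end, by 4 such classes of gene length (right). In the CpG-rich class 21 of 39 Ppp genes had a region, and in the CpG-poor class 0 of 4.

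CpG content of the start window moved with the presence of a region at Ppp genes as at other genes. Protein-coding genes were put into 3 classes of about equal size by CpG. In the class with the most CpG (7.33 to 22.3 per 100 bases), 21 of 39 Ppp genes (53.8%) had a region over a start window, against 47.7% of all genes. In the middle class (2 to 7 per 100 bases) these were 2 of 18 Ppp genes (11.1%) and 11.5% of all genes, and in the lowest class 0 of 4 and 0.444%. Of the 61 Ppp genes, 39 thus stood in the CpG-rich class. In that class 2 of 5 catalytic genes had a region, without Ppp1cc, Ppp4c and Ppp5c, and 19 of 34 regulatory genes. Among the CpG-rich genes without a region were Ppp1cc with 14.0, Ppp2r2d with 12.7 and Ppp4c with 12.0 CpG per 100 bases.

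Gene length also differed. The median length of Ppp genes was 23275 bp, against 17217 bp for all protein-coding genes, and it was 36315 bp for Ppp genes with a region and 18017 bp for those without. Among 4 classes of equal size by length, in the class of the longest genes, 14 of 24 Ppp genes (58.3%) had a region in the gene body or within 1 kb of an end, against 37.9% of all genes. In the classes below it, from long to short, these were 10 of 24 (41.7%) and 26.1%, 3 of 15 (20%) and 20.04%, and 4 of 14 (28.6%) and 11.7%. The part of CpG content and of gene length in the count at Ppp genes was not tested.

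Of the 6 motifs, the GC box differed most in percentage points. It was present in 22 of 27 start windows (81.5%) of Ppp genes with a region over a start window and in 27 of 47 windows (57.4%) of Ppp genes without one. It was found in 72.2% of windows of those protein-coding genes that had a region over a start window, and in 46.2% of 21263 windows of all protein-coding genes. Every window of such a gene was counted, also one that no region overlapped. The TATA box was in 1 of 27 and 7 of 47 windows (3.70% and 14.9%), against 12.6% of all windows. The CCAAT box was in 25.9% and 34.0%, against 38.2%; the CRE in 7.41% and 6.38%, against 2.23%. The E-box was in 7.41% and 2.13%, against 7.84%, and the ETS site in 7.41% and 12.8%, against 11.6%. CRE, E-box and ETS site were in only 2, 2 and 2 of 27 windows and in 3, 1 and 6 of 47. In windows of the protein-coding genes that had a region over a start window, the TATA box was in 5.61%, the CCAAT box in 34.6% and the CRE in 3.31%. Among those windows the E-box was in 11.8% and the ETS site in 15.1%. Adjacent GC boxes can overlap each other, as in the window of Ppp1r26 above, and a letter match is not a binding site. Base composition differed too. Windows of Ppp genes with a region over a start window had medians of 70.7% G and C and 11.3 CpG per 100 bases. Windows of Ppp genes without one had 58.7% and 7. The part of base composition in the motif shares was not tested.

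Phosphatase genes outside the Ppp symbols, and genes of phosphatase regulators, partners and targets, were looked at by 5 lists. All 52 genes of the lists were matched, and many of them do not encode a phosphatase. Regions in the gene body or within 1 kb of an end were found at 27 of the 52 (51.9%, 37.6 to 66.0), against the 23.9% of all protein-coding genes. The lists were chosen with earlier results of these data known, so this interval is counting error only and no test. Of 18 metal-dependent phosphatase genes, most of which act without a regulatory subunit, 11 had a region, led by Pdp1 (10.0 and 14.8), the gene of a mitochondrial pyruvate dehydrogenase phosphatase, then Ppm1a (7.86 and 12.1) and Ilkap (8.57 and 9.73). Of 13 PP2A regulators and partners, 5 had one, among them Strn4 (9.48 and 10.4), a striatin that acts as a PP2A B subunit, Cip2a (5.69 and 9.06) and Set (4.90 and 6.38), which encode PP2A inhibitors. The inhibitor gene Arpp19 had 4.59 and 2.99 and the activator gene Ptpa 4.64 and 3.42. Of 10 PP1 partners, 5 had one, including Rif1 (7.94 and 14.0), Phactr2 (9.61 and 10.7) and the kinetochore gene Knl1 (3.93 and 4.70). Of 9 calcineurin regulators and targets, 6 had one, including the inhibitor gene Rcan3 (9.87 and 8.73) and the transcription factor gene Nfatc3 (5.42 and 8.45). The PPP-type catalytic genes Ppef1 and Ppef2 had none. No KO peak was found at any of the 27 genes with a region, where the KO share of all protein-coding genes was 0.22%.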

How the data were processed

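Peaks of 3 ChIP libraries (1 KO, 2 WT) were used, and the 2 input libraries were not analysed here. The tools named in the submitters' processing notes are MACS2 2.2.6, Bowtie2 2.3.5, cutadapt 2.6, SAMtools 1.10, deepTools 3.5.0 and Picard, and the build is mm10. What settings, threshold and control sample each peak call had is not given in the sources used here. Every deposited list has the peaks of 1 library, with fold enrichment (a ratio over background), −log10 p, −log10 q, a summit offset and a score that is −log10 q times 10, all made by the authors. Peaks with a q-value above 0.05 are included (29 KO peaks, 1580 and 2349 WT peaks), and their lowest −log10 p was 4.47 in KO, 2.71 and 2.54 in WT.

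Overlap means at least 1 shared bp. Overlapping WT peaks were joined, 5457 regions with peaks of both replicates resulted, and 132 with a KO peak were removed. The strongest region of a gene has the best mean percentile rank of fold. Genes came from RefSeq GRCm38.p6 (the assembly of mm10) without mitochondrial genes and 108 entries before 3 Mb with scaffold coordinates. Of Ppp entries, 11 pseudogenes and noncoding RNAs were not used. Starts and strand came from RefSeq start windows, which 61 members had; 16 had no entry. All members are named, those with a region with both folds and the best 10 with coordinates. Members, lists and alternatives were chosen with earlier results of these data known. Intervals are 95% exact (Clopper-Pearson). Computation used Python 3.11.15 with scipy 1.17.1, pandas 2.3.3, matplotlib 3.10.9 and numpy 2.4.6. Finding of overlaps was checked on simulated intervals.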

Additional observations from a re-analysis of the deposited data

How the results depend on the processing

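Counts of Ppp genes with a region kept within 1.5 times their value when peaks needed a −log10 q of at least 1.3, under a reciprocal overlap of 50%, with the summit in the window, with KO peaks kept, and with windows of 500 bp or 2 kb. At a −log10 q of at least 5 there were 18 Ppp genes by either window rule and 15 regulatory genes with a region, where the shares of all protein-coding genes were 13.7% for body and ends and 11.8% for ends. At 10 there were 10 by either rule, 0 catalytic and 10 regulatory genes, where these shares were 7.88% and 6.78%. With genes whose end windows overlap those of another gene left out, 44 Ppp genes remained, of which 18 had a region (17 within 1 kb of an end); these are 2 of 8 catalytic and 16 of 35 regulatory genes, and fewer genes by construction. These are 40.9% and 38.6% of the Ppp genes left, against 20.3% and 17.5% of all protein-coding genes left; the catalytic share was 25%. With each WT replicate left out in turn, 37 to 41 Ppp genes had a peak (35 to 39 within 1 kb of an end), of which 4 to 7 were catalytic and 33 to 34 regulatory. The shares of all protein-coding genes with a peak were 27.8% to 32.6% (23.7% to 27.8% within 1 kb of an end). No paired analysis was possible because the input libraries that share replicate numbers with the WT ChIP have no peak list here and no result comes from a test. Unknown read depth limits every missing peak.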
